A study of Mus musculus with 12 samples.

Results

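Expression of 8 genes that mark proteins for ubiquitination, or that steer the enzymes doing so, was followed in mouse CD8+ T cells: the E3 ubiquitin ligases Cbl, Cblb, Itch, Nedd4, Peli1 and Traf3, and the ligase adaptors Ndfip1 and Ndfip2. They were chosen by name, as ligases and adaptors studied in T cell activation. Their rows were taken from a raw read count table of 14323 genes. All 8 were in the table and all 8 had enough counts to be tested in every comparison.

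The cells were naive splenic CD8+ T cells (TCRβ+CD8+CD62L+CD44-) of 3 wild type animals, sorted and then kept for 6 h at 100000 cells in each antibody-coated well. LAIR-1 is an inhibitory receptor for collagen. In the labels, the unstimulated groups were plated on isotype control alone or on anti-LAIR-1 (clone 2C7) with isotype, whereas the stimulated groups were plated on 2.5 µg/ml anti-CD3ε (clone 145-2C11) with either isotype or 2.5 µg/ml anti-LAIR-1. Each of the 3 mice gave 1 library to each of the 4 groups, 12 libraries in all. The study's methods describe its mice as adult C57BL/6N or of that background, and do not give the age and sex of these 3.

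Libraries held 1781218 to 7725545 counts, so that 3 counts corresponded to 0.388 to 1.68 CPM (the count divided by the TMM-scaled library total and given per 1e6 counts). The anti-CD3 libraries were deeper than the unstimulated isotype libraries, and mitochondrial genes took 17.6 to 20.9% of the counts of an unstimulated library and 11.5 to 13.2% of those of an anti-CD3 library. The labels were checked against marker genes. Cd69, Il2ra, Nr4a1, Egr1, Myc and Irf4, genes induced early by T cell receptor signals, summed to 218 to 269 CPM without anti-CD3 and to 2090 to 2660 CPM with it. Transcripts of Cd4, Foxp3 and Zbtb7b summed to at most 4.73 CPM, B cell transcripts to at most 17.9 CPM and the measured natural killer cell transcripts to at most 0.664 CPM in any library, against 1680 to 5260 CPM for the 8 measured naive CD8 T cell markers.

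Ubiquitination attaches the small protein ubiquitin to a target, and an E3 ligase chooses that target. In T cells, ligases of the CBL family act on kinases and adaptors close to the antigen receptor, ITCH and NEDD4 carry a HECT catalytic domain and WW domains that bind PPxY motifs, and NDFIP1 and NDFIP2 are membrane proteins whose PPxY motifs recruit and activate ligases of the NEDD4 family. PELI1 is a RING-type ligase that was reported to act on the NF-κB subunit c-REL, and TRAF3, together with TRAF2 and the cIAP ligases BIRC2 and BIRC3, keeps the kinase NIK (Map3k14) at a low level. Loss of Cblb, Itch, Ndfip1 or Peli1 in mice is known to give overactive T cells, which is why those genes are spoken of as brakes. The same is not stated here for Cbl, Nedd4, Ndfip2 or Traf3.

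In GENCODE M21 (GRCm38, the same assembly as the mm10 used for the files), Cbl lies at chr9:44142976-44234049 on the minus strand and Nedd4 at chr9:72662346-72749852 on the plus strand. The remaining members are all on the plus strand: Cblb at chr16:52031225-52208048, Itch at chr2:155133509-155226855, Ndfip1 at chr18:38410396-38465303, Ndfip2 at chr14:105258573-105309298, Peli1 at chr11:21091291-21150323 and Traf3 at chr12:111166370-111267153. No exon of another annotated gene lay in the last 1000 bases of any of the 8 loci, the end from which CEL-seq counts its reads. Traf3 overlaps a coding gene on the other strand, 4930595D18Rik, elsewhere in its locus.

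The first question was how CD3 stimulation moved these genes. With isotype control, 6 of the 8 members passed an adjusted p of 0.05 in edgeR's quasi-likelihood test: Ndfip1, Ndfip2 and Cblb were higher and Nedd4, Peli1 and Itch were lower with anti-CD3. The background was large, since 71.3% of 8690 tested genes passed (35.3% higher and 36.1% lower), so a count of 6 of 8 lay near the share of all genes. The same 6 passed when mitochondrial genes and Rn45s were left out. In a bulk library a transcript that is lower in every cell and one carried by fewer cells cannot be told apart. With anti-LAIR-1 on both sides of the comparison, the same 6 members passed in the same directions, against 72.7% of 9000 tested genes (36.4% higher and 36.3% lower). The median log2 fold change of the 8 members was -0.10 with isotype and 0.01 with anti-LAIR-1, beside -0.03 and -0.04 over all genes tested.

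**Figure D1:**
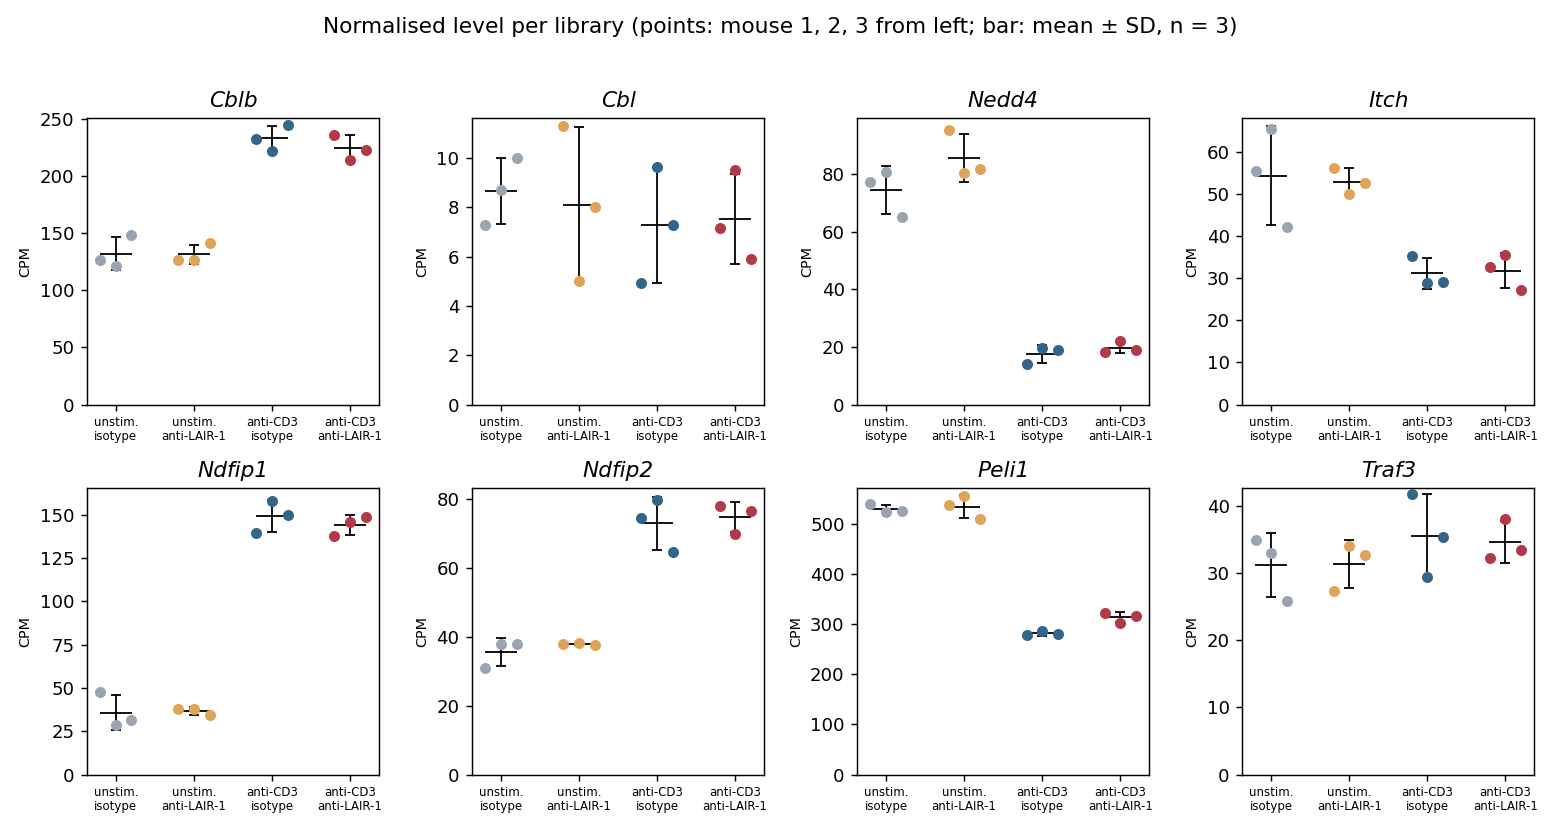
CPM of each member (vertical axes, starting at 0) in the 12 libraries, by group; points are mice 1, 2 and 3 from left to right, and bars give the mean ± SD of n = 3. For Cblb, Nedd4, Itch, Ndfip1, Ndfip2 and Peli1 the 6 anti-CD3 libraries lie apart from the 6 unstimulated libraries, while for Cbl and Traf3 the groups overlap. Of all genes tested, 73.4% had no overlap between the anti-CD3 and unstimulated groups with isotype, and 74.7% with anti-LAIR-1. Those shares are for 3 libraries against 3, and the share of all genes for 6 against 6 was not computed.

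Of the 2 CBL family members, Cblb passed and Cbl did not. Cblb encodes CBL-B, the family member best known for making T cell activation depend on CD28 costimulation. It stood at 126, 121 and 148 CPM in mice 1, 2 and 3 in unstimulated isotype wells and at 232, 222 and 244 CPM with anti-CD3 and isotype. Under anti-LAIR-1 it stood at 127, 127 and 141 CPM without anti-CD3 and at 236, 214 and 222 CPM with it. Every anti-CD3 library was above every unstimulated library. The log2 fold change was 0.75 (SE 0.104, 95% CI 0.54 to 0.97, adjusted p = 8.91e-07) with isotype and 0.75 (SE 0.0844, adjusted p = 1.54e-07) with anti-LAIR-1, a rise of 1.68-fold in the former.

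Cbl, which encodes the related ligase c-CBL, was measured on far fewer counts, 16 to 56 per library. Its level was 8.67 ± 1.35 CPM (SD, n = 3) in unstimulated isotype wells, 8.11 ± 3.15 with anti-LAIR-1 alone, 7.28 ± 2.37 with anti-CD3 and isotype, and 7.54 ± 1.83 with both antibodies. All 4 groups overlapped. Its log2 fold change with anti-CD3 was -0.28 with isotype (95% CI -0.92 to 0.37, adjusted p = 0.437) and -0.11 with anti-LAIR-1 (95% CI -0.72 to 0.50, adjusted p = 0.75), so a change the size of that of Cblb in the upward direction lay outside both intervals, but a fall of similar size could not be distinguished from no change in the isotype comparison at this depth.

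Of the HECT ligases, Nedd4 had the larger fitted change. NEDD4 is the founding member of the family that also holds ITCH. It was at 77.3, 80.9 and 65.2 CPM in the 3 unstimulated isotype libraries and at 14.1, 19.7 and 18.9 CPM with anti-CD3 and isotype, and at 95.4, 80.3 and 81.7 CPM against 18.2, 21.9 and 19.0 CPM in the corresponding anti-LAIR-1 wells. The highest anti-CD3 library was therefore below the lowest unstimulated library. The fitted change was -2.14 on the log2 scale with isotype (SE 0.157, 95% CI -2.46 to -1.81, adjusted p = 2.16e-11), a level 4.40-fold lower, and -2.14 with anti-LAIR-1 (SE 0.126, adjusted p = 1.33e-11). Only 9.48% of tested genes had a lower log2 fold change in the isotype comparison and 6.37% in the anti-LAIR-1 comparison.

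Itch, named after the itching skin disease of mice that lack it, had a smaller fitted fall. Its level was 55.4, 65.4 and 42.1 CPM in unstimulated isotype wells and 35.3, 28.9 and 29.2 CPM with anti-CD3 and isotype. With anti-LAIR-1 it was 56.2, 50.0 and 52.5 CPM without and 32.5, 35.5 and 27.3 CPM with anti-CD3. The groups with and without anti-CD3 did not overlap, although the unstimulated isotype libraries spread widely (54.3 ± 11.7 CPM). The log2 fold change was -0.90 (SE 0.162, adjusted p = 2.92e-05) with isotype and -0.74 (SE 0.128, adjusted p = 3.48e-05) with anti-LAIR-1, and 25.3% and 27.1% of tested genes fell further.

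The adaptors of these ligases moved the other way. Ndfip1 stood at 47.4, 28.5 and 31.5 CPM in unstimulated isotype wells and at 139, 158 and 150.1 CPM with anti-CD3 and isotype. In the anti-LAIR-1 wells it was at 38.0, 37.9 and 34.3 CPM without and 138, 146 and 149 CPM with anti-CD3. All anti-CD3 libraries exceeded all unstimulated libraries. The log2 fold change was 1.96 (SE 0.145, 95% CI 1.66 to 2.26, adjusted p = 2.34e-11) with isotype, or 3.90-fold, and 1.95 (SE 0.101, adjusted p = 2.03e-12) with anti-LAIR-1. It was the largest rise among the 8 members, and 6.25% and 5.59% of tested genes rose further in the isotype and the anti-LAIR-1 comparison.

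Ndfip2, the second adaptor, was at 30.9, 38.0 and 37.9 CPM in unstimulated isotype wells and at 74.7, 79.8 and 64.6 CPM with anti-CD3 and isotype. It was at 38.0, 38.2 and 37.8 CPM with anti-LAIR-1 alone and at 78.0, 69.9 and 76.8 CPM with both antibodies. Again the 6 anti-CD3 libraries all lay above the 6 unstimulated libraries. The log2 fold change was 0.97 (SE 0.144, adjusted p = 2.46e-06) with isotype and 0.96 (SE 0.110, adjusted p = 2.11e-07) with anti-LAIR-1.

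Since the ligases were lower and the adaptors higher in the same libraries, their summed levels were also set against each other within each library, as a description without a test. Ndfip1 and Ndfip2 together gave 71.4 ± 6.12 CPM in unstimulated isotype wells and 222 ± 13.6 CPM with anti-CD3 and isotype, whereas Itch and Nedd4 together gave 129 ± 19.8 and 48.7 ± 0.693 CPM (SD, n = 3). The ratio of adaptor to ligase transcripts was 0.590, 0.455 and 0.647 in mice 1, 2 and 3 without and 4.33, 4.89 and 4.46 with anti-CD3 under isotype. Under anti-LAIR-1 it was 0.502, 0.584 and 0.537 without and 4.26, 3.75 and 4.87 with anti-CD3. The stimulated and unstimulated ratios did not overlap. That separation had to follow, since each of these genes was already separate between the same libraries, so it adds no evidence. The ratios with isotype and with anti-LAIR-1 overlapped. The ratio of Itch to Nedd4 went from 0.724 ± 0.0822 to 1.84 ± 0.576 with anti-CD3 under isotype and from 0.619 ± 0.0268 to 1.61 ± 0.180 under anti-LAIR-1, with mouse 1 in the anti-CD3 isotype group highest at 2.50.

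**Figure D2:**
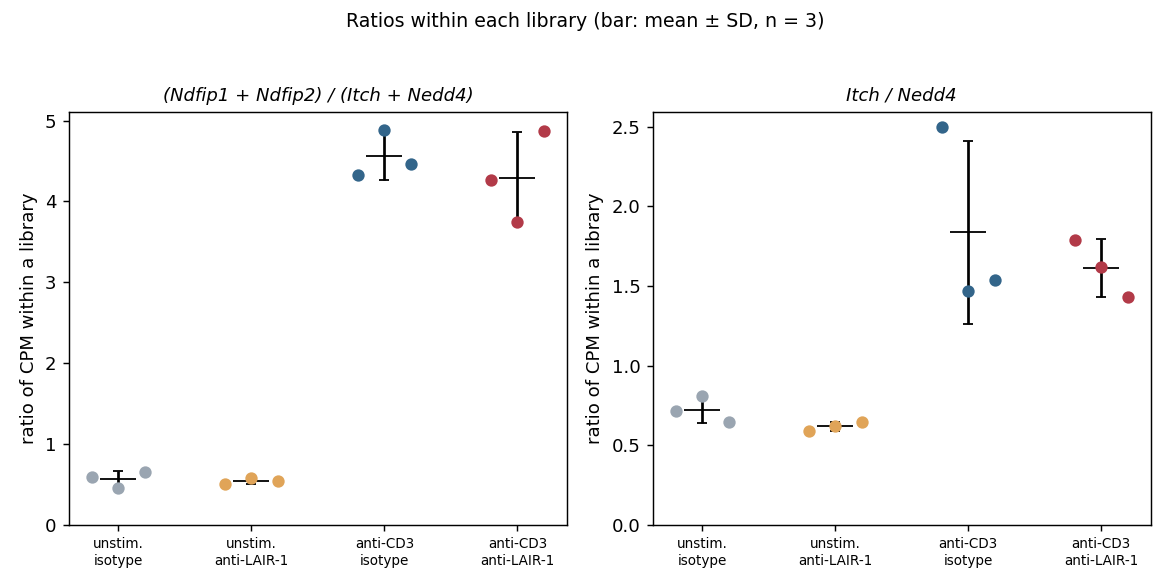
Ratio of CPM within each library (vertical axes, starting at 0) for the sum of Ndfip1 and Ndfip2 over the sum of Itch and Nedd4 (left) and for Itch over Nedd4 (right), by group; points are mice and bars the mean ± SD of n = 3. The adaptor to ligase ratio sits between 0.455 and 0.647 in the 6 unstimulated libraries and between 3.75 and 4.89 in the 6 anti-CD3 libraries. This gap follows from the levels of the single genes.

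Peli1 had the most counts of the 8 members, 903 to 2373 per library. It was at 539, 524 and 526 CPM in unstimulated isotype wells and at 278, 286 and 280 CPM with anti-CD3 and isotype. In anti-LAIR-1 wells it was at 537, 554 and 509.8 CPM without and at 322, 302 and 316 CPM with anti-CD3. Stimulated libraries were all lower than unstimulated ones. The log2 fold change was -0.99 (SE 0.0847, 95% CI -1.16 to -0.81, adjusted p = 3.2e-10) with isotype and -0.79 (SE 0.0724, 95% CI -0.94 to -0.63, adjusted p = 9.3e-09) with anti-LAIR-1.

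Traf3 did not pass in either comparison. Its level was 31.2 ± 4.78 CPM in unstimulated isotype wells, 31.3 ± 3.54 with anti-LAIR-1 alone, 35.5 ± 6.21 with anti-CD3 and isotype, and 34.6 ± 3.09 with both (SD, n = 3). The groups overlapped in both comparisons. The log2 fold change was 0.08 (95% CI -0.27 to 0.44, adjusted p = 0.672) with isotype and 0.12 (95% CI -0.16 to 0.41, adjusted p = 0.427) with anti-LAIR-1. Upper-quartile scaling turned these values to -0.09 and -0.08. That scaling moved the median of all genes to -0.20 and -0.24, and none of the 4 values passed.

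**Figure D3:**
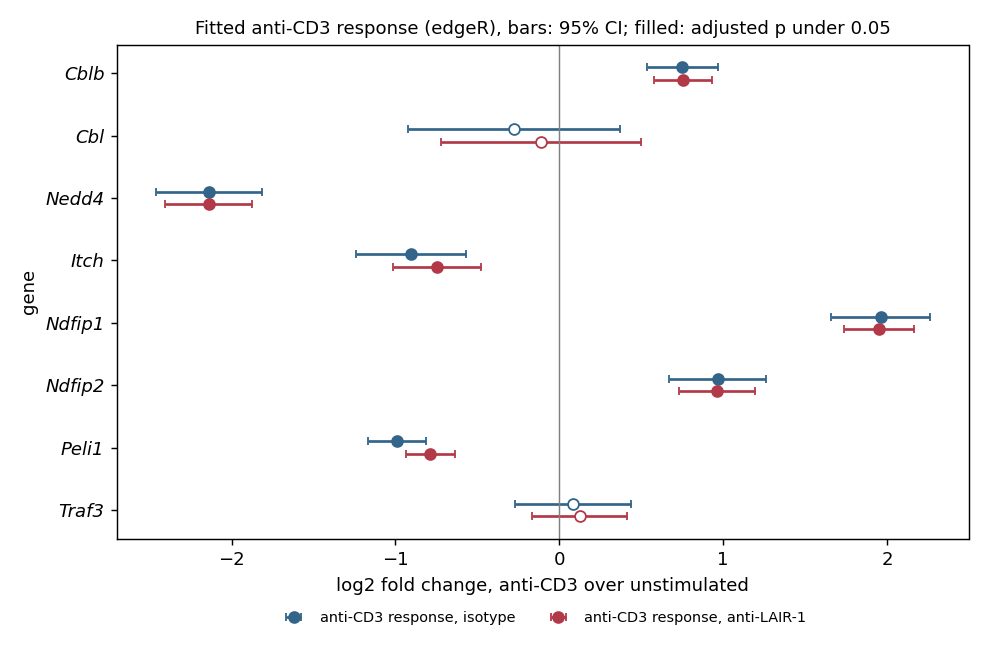
Fitted log2 fold change of anti-CD3 over unstimulated (horizontal axis) for each member, with isotype and with anti-LAIR-1; bars are 95% confidence intervals from edgeR and filled points have an adjusted p under 0.05. Values run from -2.14 for Nedd4 to 1.96 for Ndfip1 with isotype, and the intervals of the 2 comparisons overlap for every member.

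Promoter windows from RefSeq (GRCm38.p6, 250 bases before to 50 after an annotated start) were searched for 6 motifs on both strands, and the 5 windows of 4 members that passed with anti-CD3 are printed 5′ to 3′ in the direction of the gene, so that genes that rose can be read beside genes that fell. Capitals mark GGAAA (the core bound by NFAT, read as TTTCC on the other strand) or TGAGTCA (an AP-1 site). Cblb (chr16:52031299-52031598, plus strand) and Ndfip2 (chr14:105258373-105258672, plus strand) rose, Nedd4 (chr9:72662081-72662380 for the upstream and chr9:72693048-72693347 for the downstream start, plus strand) and Peli1 (chr11:21091074-21091373, plus strand) fell.
Cblb: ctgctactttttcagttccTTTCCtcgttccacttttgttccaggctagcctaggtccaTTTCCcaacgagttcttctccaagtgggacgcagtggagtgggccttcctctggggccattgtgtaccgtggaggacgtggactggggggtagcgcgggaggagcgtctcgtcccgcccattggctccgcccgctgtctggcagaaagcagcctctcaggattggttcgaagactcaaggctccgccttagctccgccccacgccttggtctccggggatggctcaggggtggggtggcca
Ndfip2: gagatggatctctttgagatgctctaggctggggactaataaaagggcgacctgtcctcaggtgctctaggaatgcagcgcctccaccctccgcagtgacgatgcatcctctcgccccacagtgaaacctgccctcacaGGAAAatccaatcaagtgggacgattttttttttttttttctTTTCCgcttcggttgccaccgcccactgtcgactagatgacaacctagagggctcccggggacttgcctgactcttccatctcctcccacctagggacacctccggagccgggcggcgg
Nedd4 upstream start: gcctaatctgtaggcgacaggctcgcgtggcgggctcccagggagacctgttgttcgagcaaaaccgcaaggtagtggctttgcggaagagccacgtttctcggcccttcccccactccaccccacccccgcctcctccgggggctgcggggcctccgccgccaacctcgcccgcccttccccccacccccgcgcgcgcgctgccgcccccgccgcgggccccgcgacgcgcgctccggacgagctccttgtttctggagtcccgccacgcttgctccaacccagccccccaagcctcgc
Nedd4 downstream start: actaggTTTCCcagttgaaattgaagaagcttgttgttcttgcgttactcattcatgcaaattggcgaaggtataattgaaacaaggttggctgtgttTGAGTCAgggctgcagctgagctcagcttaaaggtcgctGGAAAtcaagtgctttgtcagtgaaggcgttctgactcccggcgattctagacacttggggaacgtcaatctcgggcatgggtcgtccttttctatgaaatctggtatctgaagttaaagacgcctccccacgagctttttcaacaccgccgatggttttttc
Peli1: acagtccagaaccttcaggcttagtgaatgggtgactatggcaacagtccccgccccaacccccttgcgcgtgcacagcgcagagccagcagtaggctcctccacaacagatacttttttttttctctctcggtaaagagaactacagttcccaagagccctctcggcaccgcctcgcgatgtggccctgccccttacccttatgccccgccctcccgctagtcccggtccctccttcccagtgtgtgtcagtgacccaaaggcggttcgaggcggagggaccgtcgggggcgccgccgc

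GGAAA occurred 2 times in the Cblb window, 2 times in that of Ndfip2 and 2 times in the downstream window of Nedd4, and not in the windows of Peli1 or the upstream start of Nedd4. It also occurred 3 times in the window of Cbl and 2 times in that of Traf3, the members that did not pass, which are not printed. Promoters of Itch and Ndfip1 were not analysed here. It is a common word, present in 61.3% of 32851 windows of the same length. TGAGTCA occurred once, in the downstream window of Nedd4, and in 5.20% of all windows. The other 4 motifs searched, TGACGTCA (CRE, in 1.79% of all windows), CACGTG (E-box, 7.15%), TGTTTAC (FOXO, 3.65%) and GCGTGGGCG (EGR, 0.612%), were in none of the 5. The GC content was 73.0% in the upstream and 46.7% in the downstream Nedd4 window, 61.3% for Cblb, 61.7% for Peli1 and 56.0% for Ndfip2. A match describes the letters of a window and is not a binding site.

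The second question was whether LAIR-1 ligation altered the members in stimulated cells. None of the 8 passed in edgeR when anti-CD3 with anti-LAIR-1 was compared with anti-CD3 and isotype, while 5.76% of 8800 tested genes did. Of the 8, 1 (Peli1) had an unadjusted p under 0.05, beside 1658 of the 8800 genes. DESeq2 also passed none of the 8. Peli1 was the only member whose groups did not overlap, against 24.4% of all tested genes.

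Peli1 was 281 ± 4.17 CPM with isotype and 313 ± 9.99 CPM with anti-LAIR-1 (SD, n = 3), and the lowest anti-LAIR-1 library (302 CPM) was above the highest isotype library (286 CPM). The fitted difference was 0.16 on the log2 scale (SE 0.0680, 95% CI 0.02 to 0.30), higher in 3 of 3 mice, with an edgeR p of 0.030 that became 0.204 after adjustment over all genes. It did not pass in any of 15 other settings, whose adjusted p ran from 0.174 to 0.649. Without anti-CD3 the difference was -0.01 (95% CI -0.18 to 0.16), and the interaction, which tests whether the anti-LAIR-1 effect differed between stimulated and unstimulated cells, was 0.17 (95% CI -0.04 to 0.39, adjusted p = 0.55).

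For the other 7 members the fitted anti-LAIR-1 difference with anti-CD3 lay between -0.05 and 0.14. The intervals were narrow for Cblb (-0.21 to 0.10), Ndfip1 (-0.22 to 0.12) and Ndfip2 (-0.17 to 0.26), wider for Itch (-0.24 to 0.35), Traf3 (-0.31 to 0.27) and Nedd4 (-0.21 to 0.50), and widest for Cbl (-0.53 to 0.60). The levels behind them were 233 ± 11.0 against 224 ± 11.2 CPM for Cblb and 149 ± 9.40 against 144 ± 5.78 CPM for Ndfip1 (SD, n = 3), isotype first. Nedd4 was at 17.6 ± 3.03 CPM with isotype and 19.7 ± 1.98 CPM with anti-LAIR-1. These intervals leave out a doubling or a halving for each of the 7 genes, but not smaller differences.

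In cells without anti-CD3, anti-LAIR-1 left none of the 8 members past the threshold, and 0% of the 8770 genes tested in edgeR passed, with 384 at an unadjusted p under 0.05. DESeq2 also called 0 genes, with 198 at an unadjusted p under 0.05. None of the 8 members was among the 384, and no member's groups were separate, against 9.86% of all genes. The largest of the 8 differences was that of Nedd4, 74.5 ± 8.21 CPM with isotype and 85.8 ± 8.35 CPM with anti-LAIR-1, a log2 value of 0.18 (95% CI -0.08 to 0.44, adjusted p = 0.997). In the interaction test 0 of the 8 passed in edgeR, against 2.07% of 9223 genes. None of the 8 had an unadjusted p under 0.05, against 1124 of the 9223 genes. DESeq2 passed 0 of the 7 members it gave an adjusted p, and gave none to Cbl. The anti-CD3 responses of the members with isotype and with anti-LAIR-1 were thus not shown to differ.

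**Figure D4:**
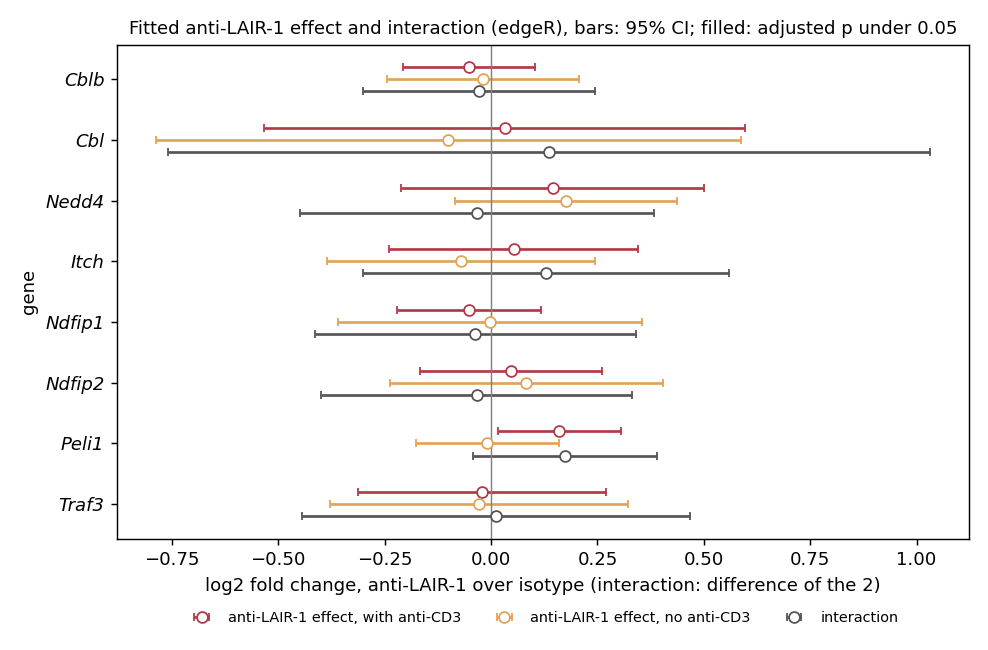
Fitted log2 difference of anti-LAIR-1 over isotype (horizontal axis) with and without anti-CD3, and their interaction, for each member; bars are 95% confidence intervals from edgeR and open points did not pass. The interval of Peli1 with anti-CD3, 0.02 to 0.30, is the only one that leaves out 0 before adjustment.

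Genes that work with the members were taken from 4 lists. Of 28 other E3 ligases studied in lymphocytes, 22 were tested and 12 passed with anti-CD3 and isotype, 3 higher and 9 lower, a share of 54.5% beside 71.3% of all genes. Nedd4l, the closest relative of Nedd4, went from 17.2 ± 1.28 to 0.930 ± 0.437 CPM, which is about the level of 3 counts (adjusted p = 5.8e-10). Rnf125, a ligase also known as TRAC-1, fell by 3.52 on the log2 scale (SE 0.354), to 1.46 ± 0.777 CPM. Dtx1, which encodes Deltex1 and is known for promoting anergy, fell by 3.15 (SE 0.373), to 1.44 ± 0.504 CPM. Their lowest anti-CD3 isotype libraries were at 0.61 and 0.92 CPM, also near the level of 3 counts, so the size of these falls is uncertain. With anti-LAIR-1 14 of the 22 passed, 4 higher and 10 lower, led by the same 3 genes. That is a share of 63.6% beside 72.7% of all genes.

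The partners of TRAF3, Traf2, Birc2 and Birc3 of that list and the target kinase gene Map3k14 of the list of bound or ubiquitinated proteins, were examined whatever their test gave. With isotype, the cIAP ligase gene Birc2 fell by 1.49 (SE 0.248, adjusted p = 1.1e-05) and Birc3 fell by 1.03 (SE 0.144, adjusted p = 1e-06). Map3k14, the gene of the kinase held down by the complex, fell by 1.26 (SE 0.274, adjusted p = 0.000273). It went from 19.0 ± 8.06 to 8.52 ± 0.938 CPM, and the log2 differences of mice 1, 2 and 3 were -1.57, -1.42 and -0.06. Traf2 was at 18.9 ± 6.84 CPM without and 22.0 ± 1.02 CPM with anti-CD3 (log2 value 0.11, adjusted p = 0.671). Traf2 and Traf3 were thus the 2 of these 5 genes that did not pass. With anti-LAIR-1 the log2 fold changes of Birc2, Birc3 and Map3k14 were -0.85, -0.78 and -0.62, and that of Map3k14 (adjusted p = 0.00777) was lost in 3 of 15 other settings, DESeq2 with and without the mouse as a block and the fit without mouse 1 of the unstimulated anti-LAIR-1 group, with adjusted p up to 0.142.

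Deubiquitinases, which remove ubiquitin, were represented by 12 genes, of which 11 were tested. With isotype 8 passed, 3 higher and 5 lower, a share of 72.7% beside 71.3% of all genes. Uchl5, a deubiquitinase of the proteasome, rose by 1.63 (SE 0.142, adjusted p = 4.34e-10) and Otub1 by 1.07 (SE 0.160, adjusted p = 2.44e-06), while Cyld, which takes chains off NF-κB signalling proteins, fell by 1.02 (SE 0.141, adjusted p = 7.94e-07). With anti-LAIR-1 10 passed, 4 higher and 6 lower, a share of 90.9% beside 72.7% of all genes. That count was 6 in DESeq2. Tnfaip3, which encodes A20, fell by 0.93 (SE 0.132, adjusted p = 1.14e-06) with isotype and fell by 1.29 (SE 0.127, adjusted p = 2.53e-08) with anti-LAIR-1.

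Among adaptors and partners of the members, 20 of 21 were tested and 15 passed with isotype, 8 higher and 7 lower. That is a share of 75% beside 71.3% of all genes. Genes of proteins that bind CBL family ligases went in both directions. Sla2, which encodes the adaptor SLAP-2, fell by 3.57 (SE 0.292, adjusted p = 1.49e-10), from 26.9 ± 5.08 to 2.46 ± 0.740 CPM, whereas its relative Sla rose by 1.08 (SE 0.137, adjusted p = 2.21e-07). The CBL-binding phosphatase gene Ubash3b (STS-1) rose by 2.38 (SE 0.176, adjusted p = 2.24e-11), and its relative Ubash3a fell by 1.27 (SE 0.242, adjusted p = 5.96e-05). Sh3kbp1, which encodes the CBL-binding scaffold CIN85, fell by 1.55 (SE 0.0983, adjusted p = 1.38e-12). With anti-LAIR-1, 16 passed, 9 higher and 7 lower, a share of 80.0% beside 72.7% of all genes. Ube2n, the gene of the E2 enzyme UBC13, rose by 1.36 (SE 0.101, adjusted p = 2.6e-11) with isotype and 1.40 (SE 0.0835, adjusted p = 1.62e-11) with anti-LAIR-1.

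The last list held genes of proteins known to be bound or ubiquitinated by the members. The libraries give transcript levels, and neither these proteins nor their ubiquitination were measured in them. Of the 21 genes, 20 were tested and 14 passed with isotype, 8 higher and 6 lower, a share of 70.0% beside 71.3% of all genes. Rel, the gene of the PELI1 target c-REL, went from 2.82 ± 0.306 to 38.0 ± 6.49 CPM, a log2 fold change of 3.65 (SE 0.274, adjusted p = 3.08e-11). Junb, whose product is a target of ITCH, rose by 0.71 (SE 0.116, adjusted p = 9.4e-06). Jak1, reported as a target of ITCH with NDFIP1, fell by 2.11 (SE 0.0855, adjusted p = 4.74e-16), from 868 ± 18.8 to 212 ± 6.14 CPM. The CBL-B partner gene Pik3r1 fell by 2.32 (SE 0.224, adjusted p = 2.49e-09) and Cd247, which encodes the CD3ζ chain, fell by 2.21 (SE 0.116, adjusted p = 4.75e-14). With anti-LAIR-1 18 of the 20 passed, 11 higher and 7 lower, a share of 90.0% beside 72.7% of all genes. Zap70, the kinase that CBL proteins bind, rose by 1.82 (SE 0.113, adjusted p = 1.02e-12) with isotype and 1.97 (SE 0.0949, adjusted p = 6.91e-13) with anti-LAIR-1.

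**Figure D5:**
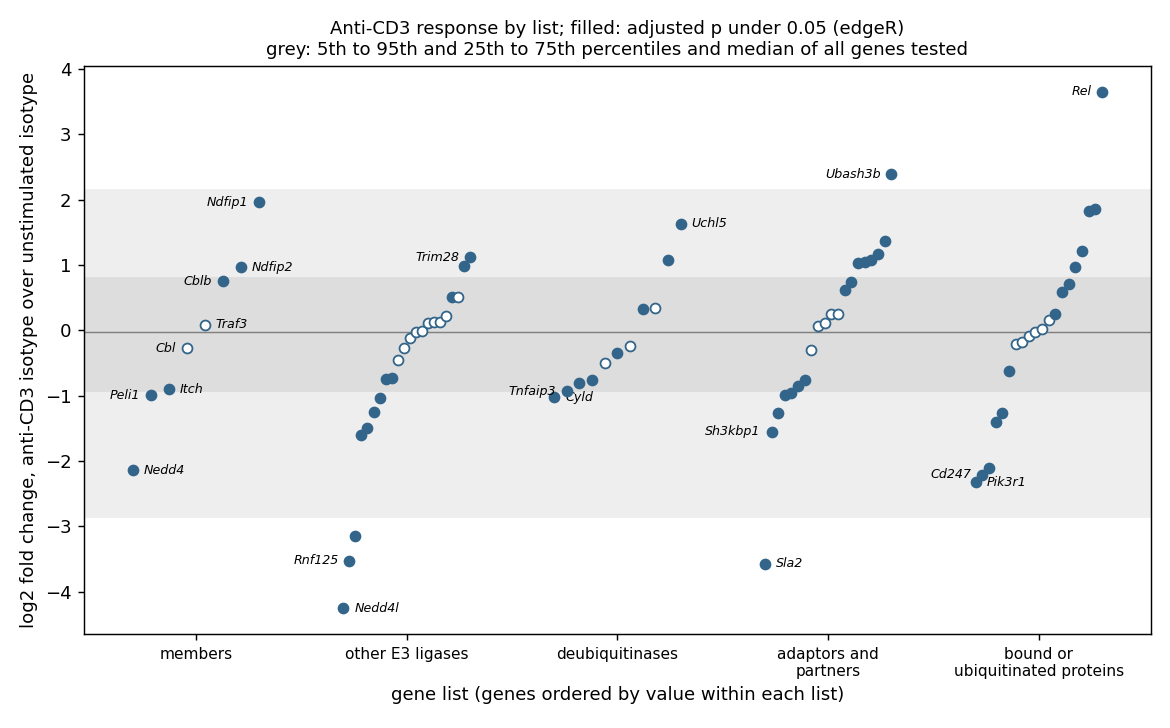
Log2 fold change of anti-CD3 isotype over unstimulated isotype (vertical axis) for the tested genes of the 5 lists, ordered by value within a list; filled points have an adjusted p under 0.05, and grey bands span the 5th to 95th and 25th to 75th percentiles of all genes tested, with their median as a line. Members reach from -2.14 to 1.96, inside the outer band of -2.86 to 2.15.

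In stimulated cells, 4 genes of the 4 lists passed between anti-LAIR-1 and isotype in edgeR, where 5.76% of all 8800 tested genes passed. Nedd4l, Rnf125 and Dtx1 did not pass the filter on low counts in this comparison and were not tested. None of the 21 other E3 ligases tested and none of 20 adaptors passed in edgeR. Of these, 1 ligase and 5 adaptors had an unadjusted p under 0.05, beside 1658 of all 8800 tested genes. The adaptor nearest the threshold was Sh3kbp1, at 108 ± 6.43 CPM with isotype and 133 ± 13.8 CPM with anti-LAIR-1 (log2 value 0.32, SE 0.0916, adjusted p = 0.0505, higher in 3 of 3 mice). The adaptor count was 1 in 6 of 15 other settings, among them edgeR with the mouse as a block and the fit without mouse 3 of the anti-LAIR-1 group. The counts of the next 2 lists ran from 0 to 2 for deubiquitinases and from 1 to 4 for bound or ubiquitinated proteins over those settings. Of 11 deubiquitinases, 1 passed: Uchl5, which had risen with anti-CD3, was 95.4 ± 3.32 CPM with isotype and 75.6 ± 3.96 CPM with anti-LAIR-1, a log2 value of -0.33 (SE 0.0872, adjusted p = 0.0349). Of 20 genes of bound or ubiquitinated proteins, 3 passed (15.0%, beside 5.76% of all genes), all higher. Cd28, the costimulatory receptor, was 454 ± 40.1 against 589 ± 40.1 CPM (log2 value 0.38, SE 0.0776, adjusted p = 0.00634), Jak1 was 212 ± 6.14 against 259 ± 14.3 CPM (0.30, SE 0.0732, adjusted p = 0.0215), and Lat, the scaffold next to the receptor, was 649 ± 37.4 against 775 ± 20.5 CPM (0.26, SE 0.0668, adjusted p = 0.0275).

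For all 4 genes the isotype and anti-LAIR-1 libraries did not overlap, beside 24.4% of all tested genes. The 4 were named because they passed on these same libraries, so their separation is no further evidence. Cd28 passed in 15 of 15 other settings, Jak1 in 10, Lat in 8 and Uchl5 in 7. Leaving out any 1 of the 6 libraries ended the call of Uchl5 (adjusted p 0.0649 to 0.113). Without mouse 2 or 3 of either group Jak1 no longer passed (0.0578 to 0.121), and Lat no longer passed without mouse 1 or 3 of the isotype group or without any 1 mouse of the anti-LAIR-1 group (0.0578 to 0.131). With the mouse as a block the 3 genes still passed in edgeR and did not in DESeq2, where the adjusted p was 0.11 for Jak1, 0.0638 for Lat and 0.219 for Uchl5. Among the genes examined whatever their test gave, Sla2 (log2 value 0.95, adjusted p = 0.15), Birc2 (0.58, adjusted p = 0.172), Ubash3a (0.49, adjusted p = 0.216), Map3k14 (0.44, adjusted p = 0.239) and Sla (0.21, adjusted p = 0.194) had an unadjusted p under 0.05 but did not pass. Traf2, Birc3, Rel and Junb had unadjusted p of 0.209 or more. Without anti-CD3, none of the tested list genes passed.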

How the data were processed

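RNA of 12 CD8+ T cell cultures was measured by CEL-seq, which reads the 3′ end of transcripts. Per the labels and the study's methods, the authors aligned reads to the mouse mm10 transcriptome with BWA MEM, discarded reads that mapped equally well to several places and deposited raw counts per gene. Whether molecular identifiers were collapsed is not given in the sources used here. Samples were grouped by GEO's labels.

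From the deposited counts, edgeR 4.0.16 (R 4.3.3) was run with TMM factors, filterByExpr and the quasi-likelihood F-test for each pair of groups, and for the interaction over all 12 libraries. Two-sided p-values were adjusted by Benjamini and Hochberg across every gene in a fit, and 0.05 was the threshold. DESeq2 1.42.0, other scaling, other filters, the mouse as a block, and leaving out each library were alternatives. Leaving out mitochondrial genes and Rn45s was added after the data were seen. Scripts were tested on simulated counts. CPM are TMM-scaled, and log2 values used a prior count of 2.

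The methods state that cells were sorted per mouse, and the mouse number in the labels pairs the 4 libraries of an animal. Deviations of same-numbered libraries from their group means correlated by 0.0263 to 0.0892 on average. The smallest exact permutation p for 3 against 3 is 0.1, so no such test was used for single genes. Libraries of one group differed by more than sampling noise, and all were kept.

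The members and lists were chosen with earlier results of these data known. The text names the 8 members throughout, the 3 largest changes per list and comparison among genes that passed, and Traf2, Birc2, Birc3, Map3k14, Rel, Junb, Jak1, Ubash3a, Sla and Sla2 whatever their test gave, and for each member the gene with the most similar pattern.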

Additional observations from a re-analysis of the deposited data

Results flagged for a closer look

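The anti-LAIR-1 effect on Cd28 differed between stimulated and unstimulated cells by the interaction test. Cd28 was 457 ± 20.2 CPM with isotype and 440.0 ± 27.0 CPM with anti-LAIR-1 in unstimulated wells, and 454 ± 40.1 against 589 ± 40.1 CPM with anti-CD3 (SD, n = 3). The interaction was 0.46 on the log2 scale (SE 0.118, adjusted p = 0.0362 in edgeR), above 0 in 3 of 3 mice. It passed in 12 of 20 other settings and was lost in 8 of the 12 fits that left out 1 library (adjusted p up to 0.111). Those libraries were mice 2 and 3 of the unstimulated isotype group, 1 and 3 of the unstimulated anti-LAIR-1 group, and 2 and 3 of both anti-CD3 groups.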

How the results depend on the processing

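Counts of members that passed were the same in every alternative run, 6 in each anti-CD3 comparison and 0 in each anti-LAIR-1 comparison and the interaction, the mouse as a replicate block included. DESeq2 gave Cbl no adjusted p in the interaction, with or without the block, or with the block for anti-LAIR-1 with anti-CD3, so those counts are over 7 members. Of 640 values of members under alternatives, 61 changed sign, none of them with a call in either fit, and the largest value that did so was 0.14 on the log2 scale. Such a sign change was not counted as a reversal where the value was smaller than its standard error. Among all genes, the count for anti-LAIR-1 with anti-CD3 went from 507 to 549 in edgeR and 224 in DESeq2 with the block, and to 293 to 427 without 1 library. Without mouse 2 of the anti-CD3 isotype group it was 293. Without anti-CD3 the count was 5 with no filter and 0 to 1 without 1 library. The interaction count went from 191 to between 103 and 186 without 1 library. The share of higher calls for anti-LAIR-1 with anti-CD3 went from 67.7% to 79.8% with all 12 libraries in the fit. The deubiquitinases passing with anti-CD3 under anti-LAIR-1 went from 10 to 6 in DESeq2 with and without the block. Jak1 passed the interaction in DESeq2 (adjusted p = 0.0379) and not in edgeR (0.191). The causes were not tested. Cbl had the fewest counts of the 8 members, and its intervals were the widest in all 5 comparisons. Whether depth or variation between mice widened them was not tested.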

Other observations

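For each member, the gene with the most similar pattern was sought by Pearson's r of log2 CPM over the 12 libraries. The search ran over the 9223 genes tested in the interaction, so the highest r is large by selection. The libraries fall into stimulated and unstimulated ones, share mice and share the anti-CD3 response, so r is a description without a test. Nedd4 was closest to Rbms1, Ndfip1 to Zfp106, Ndfip2 to Pgam5, Cblb to Alg8, Itch to Ikzf4 and Peli1 to Fam101b, with r between 0.975 and 0.998. For the members that did not pass, r was 0.79 for Cbl with Amigo1 and 0.90 for Traf3 with Rundc1. The order was another within the 6 stimulated libraries alone, where r was 0.96 for Traf3, 0.92 for Peli1, 0.89 for Cbl, 0.88 for Ndfip1, 0.82 for Nedd4, 0.77 for Ndfip2, 0.65 for Itch and 0.53 for Cblb, each with the same gene as above. Within the 6 unstimulated libraries r ran from 0.68 for Cbl to 0.95 for Cblb. Both sets of libraries had also served to choose the gene.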
